A study of Mus musculus with 15 samples.

Results

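Wnt signals reach a cell through a chain of parts whose transcripts can each be measured, and 56 genes of that chain were read here in the mouse aorta-gonad-mesonephros (AGM) region, the part of the embryo in which hematopoietic stem cells (HSCs) first arise. The genes were chosen by name, and all 56 were found among the 28876 genes listed. They comprised 19 Wnt ligands, 10 Frizzled receptors, 4 co-receptors, 7 R-spondins and R-spondin receptors, 11 secreted inhibitors and 5 target and feedback genes. The tissue came from C57BL/6 embryos at E9.5 and E10.5, and the labels name no mutant allele and no treatment. The dorsal part of the aortic region (AoD) and its ventral part (AoV) were taken at both stages, and the urogenital ridges (UGR), which flank the aorta and hold the developing kidney and gonad, were taken at E10.5. This gave 5 groups of 3 libraries, named E9 AoV and E9 AoD, E10 AoV and E10 AoD, and E10 UGR. Each library was a pool of tissue from 15 to 34 embryos, and the pools of a group came from separate experiments. The ventral tissue gains the capacity to support HSC development between these stages, and the comparisons followed that transition in time and in position.

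In the canonical branch of the pathway a secreted Wnt ligand joins a Frizzled receptor to the co-receptor Lrp5 or Lrp6, which stabilises β-catenin and lets it act with factors of the TCF/LEF family in the nucleus. Ror1 and Ror2 are receptors for Wnt signals that do not run through β-catenin. R-spondins bind Lgr4, Lgr5 or Lgr6 and keep Frizzled receptors at the cell surface, whereas Sfrp proteins, Frzb and Wif1 capture ligand, Dkk1, Dkk2 and Dkk4 act on Lrp5 and Lrp6, and Notum removes the lipid that ligands need. Axin2, Nkd1 and Nkd2 dampen the signal inside the cell and, with Lef1 and Tcf7, commonly rise where the canonical pathway is active. In the AGM region the canonical pathway is known to be required for a limited time while HSCs emerge from the endothelium.

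Levels are given in RPM, the reads of a gene per 1000000 reads assigned to genes in its library. A library held between 33.78 and 48.54 megareads, and 3 reads corresponded to 0.0618 to 0.0888 RPM. Of the 56 genes, 54 reached 0.5 RPM in at least 1 library and were tested. Wnt10a, a ligand of skin and tooth, lay between 0 and 0.385 RPM, and Dkk4, an inhibitor, lay between 0 and 0.0983 RPM, so both stayed below 0.5 RPM in all 15 libraries. A gene was called when limma gave an adjusted p below 0.05 and a fold change of at least 2, on log2(RPM + 0.1), which understates the change of genes at low level. In whole tissue, fewer cells of a type and less RNA per cell cannot be told apart. Markers of other tissues differed between groups. Summed over lists of 4 to 10 markers, somite genes came to between 571.6 and 820.3 RPM in the AoD libraries and between 40.87 and 92.68 RPM in the AoV libraries, and liver genes to between 478.6 and 736.6 RPM in E9 AoV and at most 2.19 RPM in every E10 library. Endothelial markers were present throughout, but at a lower sum in E9 AoD (295.1 to 399.9 RPM) than in the other groups (466.2 to 691.6 RPM).

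**Figure D1:**
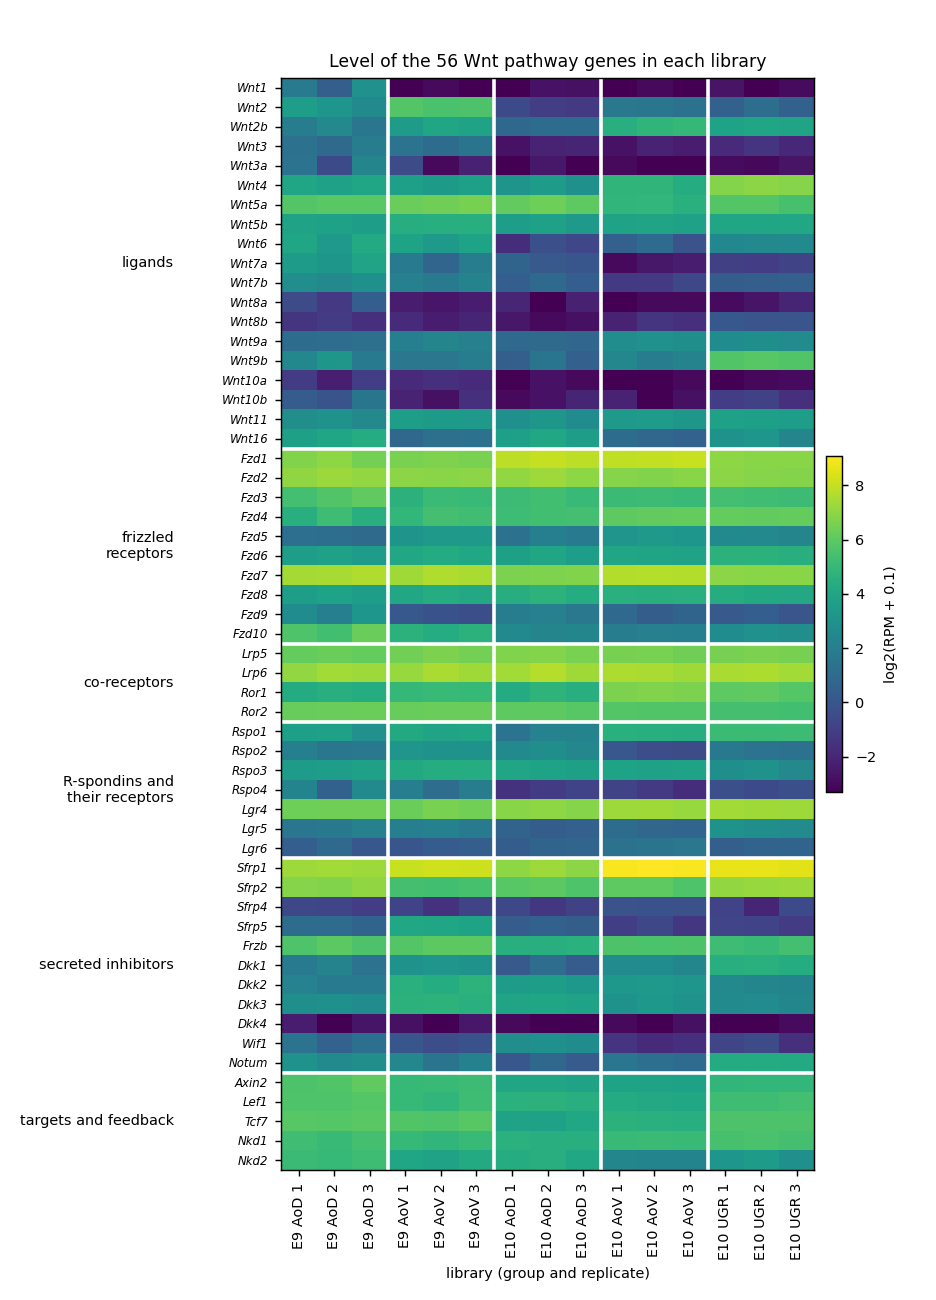
Level of each of the 56 genes (rows, by role) in each of the 15 libraries (columns, by group and replicate), as log2(RPM + 0.1) on a color scale. Receptors and Sfrp1 lie at high levels in every group, while many ligands are high in some groups and near 0 in others.

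Between E9.5 and E10.5 the falls outnumbered the rises in both tissues. In E10 AoV relative to E9 AoV, 4 of the 54 genes were higher and 17 lower, where 6.04% and 4.99% of all 18553 genes tested were called higher and lower. In E10 AoD relative to E9 AoD, 4 were higher and 23 lower, against 8.6% and 4% of all genes. The median log2 fold change of the 54 genes was -0.32 in AoV and -0.75 in AoD, while that of all genes was -0.00163 and -0.00187. Ligands accounted for 6 of the 17 falls in AoV and 12 of the 23 falls in AoD, out of 18 ligands tested, and the only ligand that rose was Wnt4, in AoV. Among these ligands, Wnt1, Wnt3, Wnt3a, Wnt8a and Wnt10b reached 0.5 RPM only in E9 libraries. They thus entered the test only through the stage at which they were high, and their falls are not independent of that filter.

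Across the aorta the differences ran both ways. In E10 AoV relative to E10 AoD, 13 genes were higher and 9 lower, against 5.81% and 4.29% of all genes, and in E9 AoV relative to E9 AoD, 8 were higher and 11 lower, against 8.32% and 3.47%. Of all genes called in the E9.5 comparison 70.6% were higher, and under quantile normalization 59.4%. Relative to the urogenital ridges more members were lower than higher in both aortic tissues. In E10 AoV relative to E10 UGR, 2 genes were higher and 16 lower, against 3.84% and 3.73% of all genes, and in E10 AoD relative to E10 UGR, 9 were higher and 16 lower, against 4.76% and 6.56%. The median log2 fold changes of the 54 genes were 0.05, -0.09, -0.32 and -0.44 in these 4 comparisons, and those of all genes lay between -0.0547 and 0.0183. All comparisons shared libraries with others.

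Stage changes also differed between the tissues. The interaction of stage and position, which is the log2 change with stage in AoV minus that in AoD, was called positive for 15 of the 54 genes and negative for 6, against 4.12% and 6.89% of all genes. Counted by the adjusted p alone, with no fold limit, the stage change was called for 37 members in AoV and 44 in AoD (46% and 57.8% of all genes), the dorsoventral difference for 36 at E10.5 and 40 at E9.5 (35.5% and 47.7%), the difference from UGR for 37 in E10 AoV and 41 in E10 AoD (29.1% and 39.2%), and the interaction for 38 (28.1%). In all, 14 of the 54 genes (25.9%) were called in none of the 7 comparisons, where 74.4% of all genes tested had no call. They were the receptors Fzd2, Fzd3, Fzd4, Fzd6, Fzd7 and Fzd8, the co-receptors Lrp5, Lrp6 and Ror2, the R-spondin receptor Lgr4, the feedback gene Nkd1, the inhibitor Sfrp4 and the ligands Wnt5b and Wnt11. Receptors thus made up most of the genes without a call, which does not show that their levels were equal.

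Among the ligands, a ventral pair was followed first. Wnt2b, a ligand made by mesenchyme around gut, lung and other organs (NCBIM37, chromosome 3, 104747723 to 104764627, minus strand), stood at 11.4, 16 and 14.3 RPM in E9 AoV with higher values of 22.5, 27.5 and 31.0 RPM in E10 AoV. It was at 3.74, 5.72 and 2.86 RPM in E9 AoD, at 1.74, 1.98 and 2.01 RPM in E10 AoD, and at 14.6, 15.8 and 15.1 RPM in E10 UGR. All ventral libraries therefore lay above all dorsal libraries of their stage, and E10 AoV above every other group. The log2 fold change between E10 AoV and E10 AoD was 3.74 (SE 0.194, adjusted p = 1.89e-09), the largest positive value among the members in that comparison, and that between E9 AoV and E9 AoD was 1.78 (SE 0.194, adjusted p = 2.92e-06). With stage it changed by 0.95 in AoV, short of the 2-fold limit, and by -1.01 in AoD, where the call was lost without E9 AoD replicate 2 (-0.75) or without E10 AoD replicate 1 (-0.95) and with pseudocounts of 0.5 and 1 RPM (-0.89 and -0.77). The interaction was 1.97 (SE 0.274, adjusted p = 8.12e-05). The study took Wnt2b up as a candidate from these same libraries, so its ventral level here is not independent evidence. In the study's cultures of E9.5 tissue, added WNT2b protein gave no statistically significant rise in repopulation.

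Wnt2, a ligand of lung and heart mesenchyme (chromosome 6, 17938940 to 17980585, minus strand), was the ventral ligand of the earlier stage. It stood at 55.5, 46.9 and 50 RPM in E9 AoV and at 11.8, 9.16 and 6.11 RPM in E9 AoD. At E10.5 it fell to 3.09, 2.84 and 2.35 RPM in AoV and to 0.589, 0.401 and 0.331 RPM in AoD, beside 1.33, 2.12 and 1.35 RPM in UGR. The 4 aortic groups did not overlap. The log2 fold change with stage was -4.16 in AoV (SE 0.232, adjusted p = 4.18e-09) and -4.06 in AoD (SE 0.232, adjusted p = 3.89e-09), and the ventral excess was 2.53 at E9.5 (SE 0.232, adjusted p = 5.11e-07) and 2.42 at E10.5 (SE 0.232, adjusted p = 9.48e-07). Thus Wnt2 and Wnt2b were both ventral at both stages. Per kilobase of exon, Wnt2 led the ligands in E9 AoV at 22.5 RPM per kb and Wnt2b led them in E10 AoV at 7.56 RPM per kb. Wnt9a, a ligand of joint and heart valve tissue, was higher in E10 AoV than in E10 AoD by a log2 fold change of 1.98, while at E9.5 the difference of 0.9964 stayed just below the limit.

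Markers of other ventral tissues also differed between these groups. The coelomic and adrenogonadal markers, 7 of 7 in the table with 1 of them below 0.5 RPM on average in each group, summed to between 748.9 and 805.7 RPM in E10 AoV, between 612.4 and 682.6 RPM in E10 UGR, 195.1 and 210.1 RPM in E9 AoV, between 53.45 and 75.68 RPM in E10 AoD, and 38.31 and 96.17 RPM in E9 AoD, so only the ranges of the dorsal groups overlapped. The gut endoderm markers, 8 of 8, summed to between 187.4 and 223.3 RPM in E9 AoV, where Wnt2 was highest. They summed to between 103.1 and 104.6 RPM in UGR and between 54.07 and 57.45 RPM in E9 AoD. In E10 AoD they lay between 32.21 and 39.34 RPM and in E10 AoV between 29.77 and 32.42 RPM. The means of Wnt2 outside E9 AoV were 9.02 RPM in E9 AoD, 2.76 RPM in E10 AoV, 1.6 RPM in UGR and 0.44 RPM in E10 AoD. The part of these tissues in the levels of Wnt2b and Wnt2 was not tested.

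A second set of ligands had its highest mean in E9 AoD and low levels elsewhere. Wnt1, the ligand of the dorsal neural tube and midbrain, stood at 3.24, 1.24 and 7.74 RPM in E9 AoD and at no more than 0.0593 RPM in any of the other 12 libraries. The E9 AoV libraries held 1 read of Wnt1 in all, so its fitted fold changes depend on the pseudocount. Over summed reads Wnt1 was 559 times higher in E9 AoD than in E9 AoV (95% exact interval 99.9 to 22100, covering counting error only) and 131 times higher than in E10 AoD (51 to 483). Wnt3a, a ligand of the dorsal neural tube and the tail bud, stood at 2.53, 0.591 and 4.90 RPM in E9 AoD and at 0.638, 0.0232 and 0.119 RPM in E9 AoV, so these groups overlapped. In the 9 libraries of E10.5 it lay between 0 and 0.0753 RPM, and over summed reads it was 115 times higher in E9 AoD than in E10 AoD (38.9 to 559). The fitted log2 fold changes were -4.93 and -2.94 between E9 AoV and E9 AoD for Wnt1 and Wnt3a (adjusted p = 4.73e-07 and 0.0015) and -4.65 and -4.11 with stage in AoD (adjusted p = 6.13e-07 and 6.56e-05). Leaving out E9 AoD replicate 2 or replicate 3 moved the fold of both by more than 1.5 times, to -5.58 or -4.30 for Wnt1 and to -3.74 or -2.31 for Wnt3a in the E9.5 comparison and to -5.29 or -4.02 and to -4.91 or -3.48 with stage. Leaving out E9 AoV replicate 1 moved the E9.5 value of Wnt3a to -3.67. Wnt10b followed the same course, with 1.13, 0.833 and 2.76 RPM in E9 AoD, 0.137, 0.0464 and 0.214 RPM in E9 AoV, then 0.0256, 0.0502 and 0.142 RPM in E10 AoD, 0.130, 0 and 0.0466 RPM in E10 AoV and 0.385, 0.432 and 0.225 RPM in E10 UGR. Wnt8a, a ligand of early mesoderm, was higher in E9 AoD than in E9 AoV and E10 AoD (log2 fold changes -1.99 and -2.05), at a mean of 0.712 RPM ± 0.447 (SD, n = 3). Both calls of Wnt8a were lost with a pseudocount of 0.5 RPM (-0.99 and -0.98) or 1 RPM (-0.63 and -0.62). Wnt1, Wnt8a and Wnt10b reached 0.5 RPM only in E9 AoD libraries, and Wnt3a only in E9 libraries. They thus passed the filter only through the groups in which they were high, and their calls are not independent of it. Neural tube markers, 10 of 10 in the table, summed to 248.7, 200.1 and 390.1 RPM in the 3 E9 AoD libraries, between 13.75 and 19.57 RPM in E9 AoV, between 47.43 and 72.74 RPM in E10 AoD, 6.823 and 10.52 RPM in E10 AoV, and 9.766 and 10.59 RPM in E10 UGR. None of these markers was at 0 in a whole group. On average, however, 9 of the 10 were below 0.5 RPM in E10 AoV, 6 in E10 UGR, 5 in E9 AoV and 2 in E10 AoD. In E10 AoV most of the sum was Lmx1a, at a mean of 6.87 RPM. The part of these markers in the Wnt1, Wnt3a, Wnt8a and Wnt10b levels was not tested.

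The 3 E9 AoD libraries ran in one order for many of these genes. In 17 of the 54 genes (31.5%) the level was lowest in replicate 2 and highest in replicate 3, an order held by 12.5% of all genes tested and by the summed neural tube, neural crest and caudal progenitor markers. The 17 were Wnt1, Wnt3, Wnt3a, Wnt4, Wnt6, Wnt7a, Wnt7b, Wnt8a, Wnt10b, Fzd9, Fzd10, Rspo4, Sfrp2, Lef1, Tcf7, Nkd1 and Nkd2. In 13 genes (24.1%) the level was lowest in replicate 3 and highest in replicate 2, as in 17.4% of all genes tested and as in the summed markers of 6 of the 12 tissues listed, namely nephric, coelomic, notochord and floor plate, liver, endothelial and hematopoietic markers. Wnt2b, Wnt8b, Wnt9b, Wnt11, Rspo1, Sfrp1, Frzb and Dkk1 were among these 13. With 3 libraries this is a description of the pools and carries no test.

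Another set of ligands fell with stage on both sides of the aorta. Wnt6, a ligand of surface ectoderm and of kidney duct epithelium (chromosome 1, 74818466 to 74831893), stood at 16.2, 10 and 19.3 RPM in E9 AoD and 14.8, 10.3 and 14.7 RPM in E9 AoV. It was at 0.205, 0.728 and 0.521 RPM in E10 AoD, at 1.30, 1.92 and 0.815 RPM in E10 AoV and at 5.45, 6.15 and 5.97 RPM in UGR. No E10 library reached the lowest E9 library. Its change with stage on the log2 scale was -4.77 in AoD (SE 0.343, adjusted p = 3.28e-08) and -3.26 in AoV (SE 0.343, adjusted p = 2.18e-06). Wnt7a, a ligand of dorsal limb ectoderm and neural tissue, stood at 11.4, 9.51 and 15.4 RPM in E9 AoD and 3.44, 1.58 and 3.57 RPM in E9 AoV. At E10.5 it was at 1.51, 1.0 and 0.90 RPM in AoD, 0.0259, 0.0767 and 0.0931 RPM in AoV and 0.415, 0.370 and 0.479 RPM in UGR. It was thus dorsal at both stages and fell with stage, with log2 fold changes of -4.10 in AoV and -3.31 in AoD. No E10 AoV library held more than 4 reads of Wnt7a, and its fall in AoV ranged from -4.47 to -1.81 over the alternative settings. The dorsal excess at E10.5 (-2.90) was not called with a pseudocount of 1 RPM (-0.99). Wnt3, which acts in gastrulation, fell from means of 2.41 RPM in E9 AoV and 2.66 RPM in E9 AoD by log2 fold changes of -3.73 and -3.71, and Wnt7b by log2 fold changes of -3.03 and -2.17. Of the 7 caudal progenitor markers, 6 were called lower with stage in AoV and 6 in AoD, with median log2 fold changes of -2.3 and -2.77. Their sum lay between 33.7 and 52.54 RPM in the E9 libraries and 2.512 and 3.321 RPM in E10 AoV, and it was still at 30.05 to 38.78 RPM in E10 AoD because brachyury (T), which the notochord also makes, rose there from a mean of 15.4 to 33.9 RPM. None of the 7 was at 0 in a whole group, though 5 averaged below 0.5 RPM in E10 AoD and 4 in E10 AoV. The part of these 7 markers in the falls was not tested.

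**Figure D2:**
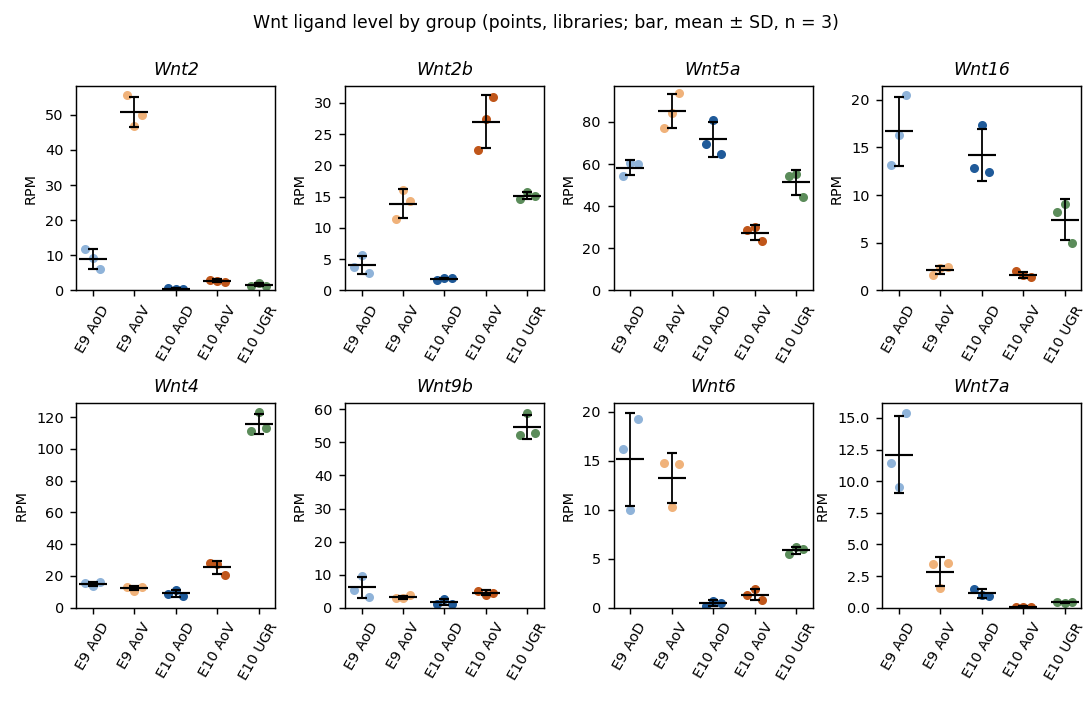
RPM of 8 Wnt ligands in the 5 groups, with each library as a point and the mean ± SD (n = 3) in black. Wnt2 is highest in E9 AoV at 46.9 to 55.5 RPM, Wnt2b in E10 AoV at 22.5 to 31.0 RPM, and Wnt4 and Wnt9b in E10 UGR, while Wnt16 is higher in both AoD groups than in AoV.

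Wnt16 and Wnt5a marked the dorsal side. Wnt16, a ligand known from bone, stood at 13.2, 16.3 and 20.5 RPM in E9 AoD and at 12.8, 17.3 and 12.4 RPM in E10 AoD. In the ventral tissue it was at 1.66, 2.34 and 2.45 RPM at E9.5 and at 2.02, 1.59 and 1.40 RPM at E10.5, and in UGR it was at 8.24, 9.09 and 4.96 RPM. The dorsal and ventral libraries were far apart at both stages, with log2 fold changes of -2.89 at E9.5 (SE 0.231, adjusted p = 1.21e-07) and -3.01 at E10.5 (SE 0.231, adjusted p = 9.48e-08). The somite markers, 9 of 9, were higher in AoD in the same way, as given above, and their part in this difference was not tested. Wnt5a, the main ligand of β-catenin-independent signalling, was dorsal only at the later stage: its mean was 58.3 RPM in E9 AoD and 85.1 RPM in E9 AoV, against later means of 71.7 RPM in E10 AoD and only 27.4 RPM in E10 AoV. The change with stage in AoV was -1.64 (adjusted p = 2.86e-08). The interaction of Wnt5a was -1.93 (SE 0.158, adjusted p = 6.34e-07).

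The ligands of the urogenital ridges were Wnt4 and Wnt9b, which act in turn in kidney tubule formation. Wnt4 (chromosome 4, 136833404 to 136855641) stood at 111, 123 and 113 RPM in UGR and at 28.1, 27.6 and 20.9 RPM in E10 AoV, with 8.51, 11.2 and 7.39 RPM in E10 AoD, 13.0, 10.7 and 12.9 RPM in E9 AoV and 15.5, 13.5 and 16 RPM in E9 AoD. Wnt9b (chromosome 11, 103588678 to 103611135, minus strand) stood at 52.3, 59.0 and 52.9 RPM in UGR and at 5.21, 3.79 and 4.61 RPM in E10 AoV, with 1.26, 2.74 and 1.28 RPM in E10 AoD, 2.96, 2.94 and 3.71 RPM in E9 AoV and 5.43, 9.57 and 3.40 RPM in E9 AoD. Every UGR library exceeded every aortic library in both genes. The log2 fold change of E10 AoV relative to UGR was -2.19 for Wnt4 (SE 0.14, adjusted p = 3.46e-08) and -3.57 for Wnt9b (SE 0.311, adjusted p = 6.35e-07), and that of E10 AoD was -3.68 and -4.97. Per kilobase of exon they led the ligands of UGR at 27.6 and 12.1 RPM per kb. Nephric markers, 8 of 8, summed to between 398.5 and 403.9 RPM in UGR, 93.8 and 112.9 RPM in E10 AoV, between 72.36 and 82.97 RPM in E10 AoD, and 62.79 and 113.8 RPM in the E9 groups, and their part in these levels was not tested. Within the aorta Wnt4 and Wnt9b were also higher in E10 AoV than in E10 AoD, by log2 fold changes of 1.5 and 1.40. The rise of Wnt4 in AoV with stage (1.05) fell below the limit when E9 AoV replicate 2 (0.96), E10 AoV replicate 1 (0.98) or E10 AoV replicate 2 (0.99) was left out.

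Among ligands at lower level in the ridges, Wnt8b was likewise highest in UGR, whereas Wnt10b and Wnt6 had their highest means in E9 AoD. Wnt8b reached a mean of 0.905 RPM in UGR and at most 0.349 RPM in any aortic library, with log2 fold changes of -1.71 for E10 AoV and -2.76 for E10 AoD. Wnt8b reached 0.5 RPM, and so entered the test, only in UGR libraries. In E10 AoD it had 6 reads in all. Its difference between E10 AoV and E10 AoD (1.05, ratio of summed reads 4.35, exact interval 1.75 to 12.9) lost its call without E10 AoD replicate 2 (0.93) or E10 AoV replicate 2 or 3 (0.90 and 0.9975), as well as under quantile normalization (0.82) and with pseudocounts of 0.5 and 1 RPM (0.37 and 0.21). The differences of Wnt8b from UGR were not called with a pseudocount of 1 RPM (-0.65 and -0.86), and that of E10 AoV was also not called with 0.5 RPM (-0.98). Wnt10b was lower in E10 AoV and E10 AoD than in UGR, with log2 fold changes of -1.54 and -1.40 (adjusted p = 0.0135 and 0.0172), both near the threshold, and neither was called with a pseudocount of 0.5 RPM (-0.60 and -0.56). The AoV call was lost without E10 AoV replicate 2 (adjusted p = 0.0701) or UGR replicate 2 (adjusted p = 0.0527), and the AoD call without E10 AoD replicate 1 (adjusted p = 0.0714), UGR replicate 1 (adjusted p = 0.0552) or UGR replicate 2 (adjusted p = 0.0621). Wnt6 in E10 AoV exceeded that in E10 AoD by 1.35, by 0.94 without E10 AoD replicate 1, and by 0.90 with a pseudocount of 0.5 RPM, the last 2 without a call. Wnt5b lay between 10.6 and 21.9 RPM and Wnt11 between 5.58 and 13.8 RPM over all libraries.

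In any comparison, at most 1 of the 10 Frizzled receptors was called higher (10%) and at most 2 lower (20%). Of all genes tested, 3.84% to 8.6% were called higher and 3.47% to 6.89% lower. Fzd1, Fzd2 and Fzd7 took the first 3 places among the Frizzled genes per kilobase in each group, at 21.9 to 57.3 RPM per kb. Fzd1, a receptor of β-catenin signalling, stood at 106, 127 and 90.4 RPM in E9 AoD and 98.4, 103 and 97.7 RPM in E9 AoV. At E10.5 it stood at 233, 261 and 231 RPM in AoD, 242, 248 and 262 RPM in AoV, and 126, 119 and 117 RPM in UGR. It rose on both sides of the aorta, with log2 fold changes of 1.18 in AoD (SE 0.0898, adjusted p = 5.71e-08) and 1.33 in AoV (SE 0.0898, adjusted p = 2.52e-08), and its E10 AoV level exceeded that of UGR by 1.05. Its excess in E10 AoD over UGR, 0.9999, stayed just short of the limit. Fzd7, with means of 181.3 and 180.0 RPM in E9 AoD and E9 AoV, 105.3 and 206.7 RPM in E10 AoD and E10 AoV, and 120.7 RPM in UGR, was called in no comparison, its log2 difference between E10 AoV and E10 AoD being 0.97.

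Another 3 Frizzled genes, at lower level, differed between tissues. Fzd5 was ventral, with means of 9.72 and 9.28 RPM in E9 AoV and E10 AoV against 2.09 and 3.34 RPM in E9 AoD and E10 AoD, and log2 fold changes of 2.16 at E9.5 and 1.47 at E10.5. Fzd9, a receptor of neural and muscle tissue, was dorsal, at 6.39, 4.06 and 9.13 RPM in E9 AoD, 3.59, 4.17 and 3.01 RPM in E10 AoD, 0.980, 0.788 and 0.689 RPM in E9 AoV, with 1.82, 1.18 and 1.49 RPM in E10 AoV and 1.01, 1.23 and 0.873 RPM in UGR. Its log2 fold change was -2.79 at E9.5 (SE 0.246, adjusted p = 3.57e-07) and -1.22 at E10.5 (SE 0.246, adjusted p = 0.00121), and 1.70 for E10 AoD relative to UGR, and the E10.5 value was -0.88 with no call at a pseudocount of 1 RPM. Fzd10, a receptor of neural tube and limb, was an early one, with means of 55.5 RPM in E9 AoD and 23.7 RPM in E9 AoV and of 3.91 to 7.06 RPM in the E10 groups, and fell with stage by log2 fold changes of -3.29 in AoD and -2.57 in AoV. Its lower level in E9 AoV (-1.18) passed below the limit without E9 AoD replicate 3 (-0.93). In NCBIM37, 74.8% of the Fzd10 exons overlap a pseudogene model of the same name and strand, so its level is uncertain. The other Frizzled genes ranged from 25.3 to 66.4 RPM (Fzd3), 22.4 to 72.5 RPM (Fzd4), 11.4 to 25.5 RPM (Fzd6), 12.1 to 26.0 RPM (Fzd8) and 109 to 153 RPM (Fzd2).

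Among the co-receptors, only Ror1 was called. It stood at 102, 106 and 101 RPM in E10 AoV and 65.5, 67.9 and 56.4 RPM in UGR, beside 19.6, 26.9 and 22.9 RPM in E10 AoD, 30.5, 34.2 and 31.6 RPM in E9 AoV and 19.6, 22.8 and 20.4 RPM in E9 AoD. E10 AoV was above every other group. On the log2 scale the change was 1.68 with stage in AoV (SE 0.0988, adjusted p = 6.6e-09) and 2.16 between E10 AoV and E10 AoD (SE 0.0988, adjusted p = 6.2e-10). Thus the receptor Ror1 was high and its known ligand Wnt5a low in E10 AoV relative to both E9 AoV and E10 AoD. Ror2, the related receptor, ranged from 40.4 to 78.4 RPM. Lrp5 ranged from 70.6 to 111 RPM and Lrp6 from 135 to 210 RPM.

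Among the R-spondins, Rspo1 and Rspo2 ran in opposite directions. Rspo1, which acts in ovary and coelomic epithelium, stood at 23.8, 22.2 and 21.1 RPM in E10 AoV against only 2.59, 4.39 and 4.57 RPM in E10 AoD, beside 18.4, 15.2 and 16.5 RPM in E9 AoV, 12.8, 13.6 and 7.72 RPM in E9 AoD and 35.2, 35.2 and 36.8 RPM in UGR. The E10 AoV libraries exceeded the E10 AoD libraries by 2.55 on the log2 scale (SE 0.203, adjusted p = 1.38e-07), and Rspo1 fell with stage in AoD (log2 fold change -1.54). Rspo2, which acts in limb and lung, stood at 0.934, 0.665 and 0.629 RPM in E10 AoV against 5.97, 7.18 and 5.30 RPM in E10 AoD, beside 8.75, 8.35 and 8.20 RPM in E9 AoV, 3.98, 2.82 and 2.99 RPM in E9 AoD and 3.14, 2.55 and 2.37 RPM in UGR. It was ventral at E9.5 (1.36, SE 0.165, adjusted p = 8.52e-06) and dorsal at E10.5 (-2.90, SE 0.165, adjusted p = 4.62e-09), and its interaction was -4.26 (SE 0.233, adjusted p = 2.26e-08). Rspo3 stood at 7.11, 7.83 and 5.72 RPM in UGR, lower than the 14.6, 13.6 and 14.5 RPM of E10 AoV and the 15.5, 14.8 and 13.3 RPM of E10 AoD, by log2 fold changes of 1.05 and 1.08 that dropped to 0.92 and 0.95 without UGR replicate 3 and to 0.96 and 0.98 with a pseudocount of 1 RPM. At E9.5 it was at 18.6, 20.5 and 20.3 RPM in AoV and 11.5, 12.1 and 13.6 RPM in AoD. Rspo4 fell with stage by log2 fold changes of -2.88 in AoV and -2.93 in AoD, the latter being -3.56 without E9 AoD replicate 2, and its mean at E10.5 was 0.345 to 0.680 RPM.

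The R-spondin receptor Lgr4 led this class per kilobase in each group and lay between 78.2 and 168 RPM. Lgr5, known as a stem cell marker of the intestine, was highest in UGR at 6.28 to 7.85 RPM, lay below this in E10 AoV and E10 AoD (log2 fold changes -2.0 and -2.37), and fell with stage in AoV and AoD (-1.15 and -1.32), by -0.86 and -0.94 and without a call at a pseudocount of 1 RPM. Lgr6 stood at 2.46, 2.66 and 2.89 RPM in E10 AoV. Its other libraries lay lower, at 0.912, 1.14 and 1.24 RPM in E9 AoV, with 1.15, 1.48 and 1.56 RPM in E10 AoD, 1.23, 1.80 and 0.941 RPM in E9 AoD and 1.27, 1.44 and 1.52 RPM in UGR. Its log2 fold change with stage in AoV was 1.22 (SE 0.194, adjusted p = 0.000124), and 0.99 and 0.81 with no call at pseudocounts of 0.5 and 1 RPM.

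**Figure D3:**
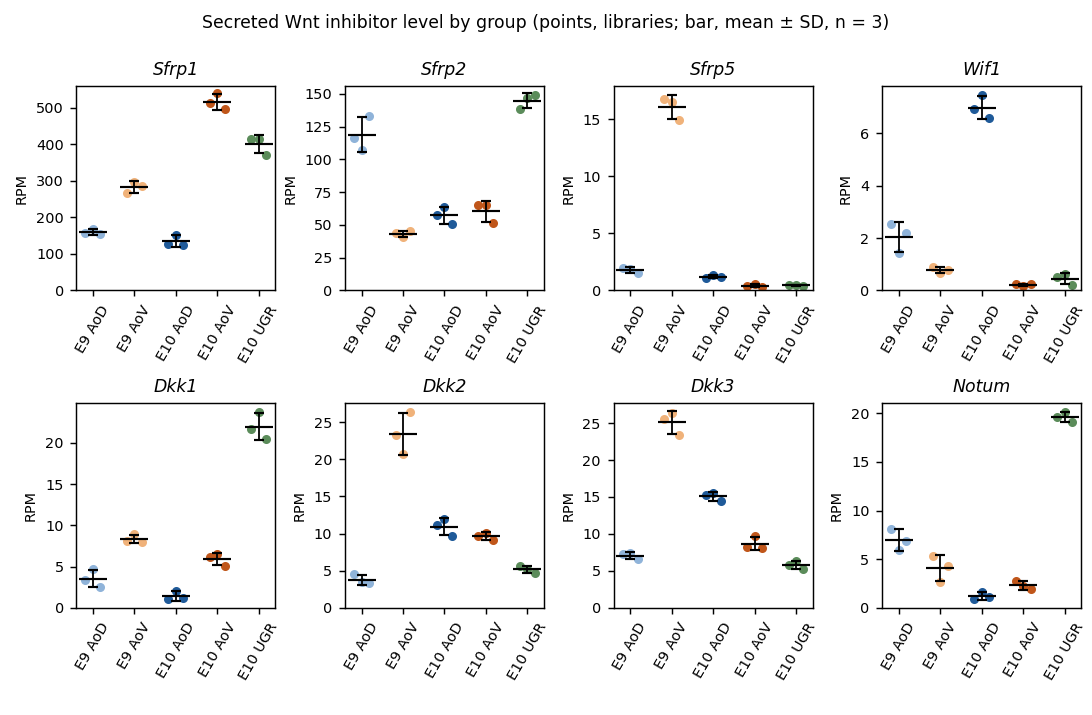
RPM of 8 secreted Wnt inhibitors in the 5 groups, with each library as a point and the mean ± SD (n = 3) in black. Sfrp5, Dkk2 and Dkk3 peak in E9 AoV, Wif1 in E10 AoD at 6.58 to 7.45 RPM, Sfrp1 in E10 AoV, and Sfrp2, Dkk1 and Notum in E10 UGR.

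Of the 10 secreted inhibitors tested, 4 fell with stage in AoV (40%, against 4.99% of all genes) and none rose (6.04%), while in AoD 3 rose (30%, against 8.6%) and 4 fell (40%, against 4%). Sfrp1, a ligand-binding protein, was the leading inhibitor per kilobase in every group but E9 AoD, where Sfrp2 led at 55.1 RPM per kb. Its mean was 516 RPM ± 21.3 (SD, n = 3) in E10 AoV, and 135 RPM ± 15.7 in the dorsal tissue of that stage, the log2 difference being 1.94 (SE 0.0733, adjusted p = 1.38e-10). In E9 AoV, E9 AoD and UGR its means were 282.7, 159.7 and 399.7 RPM. Sfrp2 took another course, with a mean of 118.7 RPM in E9 AoD, 43.1 to 60.4 RPM in the other aortic groups and 144.7 RPM in UGR. It fell with stage in AoD (log2 fold change -1.05), a call lost without E9 AoD replicate 3 or E10 AoD replicate 3 (-0.96 and -0.97). Antisense transcripts overlap 16.1% of its exons, and the library kit did not mark strand.

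Sfrp5, known from the ventral foregut (chromosome 19, 42272461 to 42276742, minus strand), was the member with the largest fall with stage in AoV. It stood at 16.8, 16.5 and 14.9 RPM in E9 AoV, falling at E10.5 to 0.389, 0.537 and 0.303 RPM. In the dorsal tissue it was at 1.97, 1.91 and 1.5 RPM at E9.5 and 1.13, 1.33 and 1.16 RPM at E10.5, and in UGR at 0.504, 0.473 and 0.366 RPM. The E9 AoV libraries were therefore far above every other library, and the E10 AoV libraries below those of E10 AoD. The log2 fold change was -5.01 with stage in AoV (SE 0.169, adjusted p = 5.31e-11) and 3.10 between E9 AoV and E9 AoD (SE 0.169, adjusted p = 3.16e-09), and was -1.38 between E10 AoV and E10 AoD (SE 0.169, adjusted p = 1.15e-05). With pseudocounts of 0.5 and 1 RPM this last value was -0.91 and -0.65 and was no longer called. The gut endoderm and liver markers were likewise highest in E9 AoV, at 187.4 to 223.3 RPM and 478.6 to 736.6 RPM, and their part in this level was not tested.

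The Dickkopf genes Dkk2 and Dkk3 shared that early ventral peak. Dkk2 stood at 23.2, 20.7 and 26.4 RPM in E9 AoV, 4.52, 3.41 and 3.27 RPM in E9 AoD, 11.2, 11.9 and 9.71 RPM in E10 AoD, 9.68, 10.1 and 9.06 RPM in E10 AoV and 5.63, 5.16 and 4.70 RPM in UGR. Its stage changes were 1.53 in AoD (SE 0.125, adjusted p = 1.07e-07) and -1.27 in AoV (SE 0.125, adjusted p = 1.11e-06) on the log2 scale, and its ventral excess at E9.5 was 2.63 (SE 0.125, adjusted p = 1.15e-09). At E10.5 the AoV and AoD ranges overlapped, with no call. Dkk3, a divergent member of the family that does not act on Lrp6 in the usual way, stood at 25.5, 26.4 and 23.4 RPM in E9 AoV, 7.25, 7.36 and 6.58 RPM in E9 AoD, 15.3, 15.5 and 14.4 RPM in E10 AoD, 8.25, 9.69 and 8.10 RPM in E10 AoV and 5.84, 6.33 and 5.18 RPM in UGR. It changed with stage by 1.08 in AoD and by -1.52 in AoV. Dkk1, the best known inhibitor of Lrp6, stood instead at 21.7, 23.7 and 20.5 RPM in UGR, 6.17, 6.5 and 5.08 RPM in E10 AoV, then 1.02, 2.08 and 1.14 RPM in E10 AoD, beside 8.09, 8.93 and 7.99 RPM in E9 AoV and 3.42, 4.65 and 2.57 RPM in E9 AoD. It was higher in AoV than in AoD at both stages, with log2 fold changes of 1.25 and 2.05, and far lower in E10 AoD than in UGR, at -3.93 (SE 0.223, adjusted p = 3.66e-09).

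Wif1, which binds ligands outside the cell (chromosome 10, 120471016 to 120537706), had the largest dorsal excess of the members at E10.5. It stood at 6.92, 7.45 and 6.58 RPM in E10 AoD against 0.259, 0.179 and 0.233 RPM in E10 AoV, beside 2.53, 1.42 and 2.20 RPM in E9 AoD, 0.889, 0.672 and 0.784 RPM in E9 AoV and 0.504, 0.617 and 0.225 RPM in UGR. The log2 fold change was -4.46 between E10 AoV and E10 AoD (SE 0.258, adjusted p = 5.39e-09) and 3.77 between E10 AoD and UGR (SE 0.258, adjusted p = 2.4e-08). With stage it rose in AoD (1.76, SE 0.258, adjusted p = 3.9e-05) and fell in AoV (-1.45, SE 0.258, adjusted p = 0.000341). The fall in AoV was not called with a pseudocount of 0.5 RPM (-0.82) or 1 RPM (-0.54). The somite markers and the notochord and floor plate markers, the latter 4 of 4 in the table, were also higher in E10 AoD, the latter at 142.8 to 163.5 RPM against 4.055 to 4.298 RPM in E10 AoV, where Noto was at 0 in all 3 libraries. Their part in the Wif1 level was not tested.

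Notum, the enzyme that inactivates ligands, stood at 19.6, 20.1 and 19.1 RPM in UGR, 2.79, 2.21 and 1.91 RPM in E10 AoV, then 0.945, 1.65 and 1.07 RPM in E10 AoD, beside 5.29, 2.69 and 4.25 RPM in E9 AoV and 8.14, 5.94 and 6.83 RPM in E9 AoD. UGR exceeded all aortic libraries, with log2 fold changes of -3.05 for E10 AoV (SE 0.228, adjusted p = 1.29e-07) and -3.93 for E10 AoD (SE 0.228, adjusted p = 4.43e-09), and Notum fell with stage in AoD (log2 fold change -2.44). Transcripts of the opposite strand overlap 38.1% of its exons, so part of its reads cannot be assigned. Frzb, a ligand-binding protein of cartilage, was lowest in E10 AoD at a mean of 23.1 RPM and between 37.8 and 60.3 RPM in the other groups, and its log2 fold change was -1.23 with stage in AoD and 1.09 between E10 AoV and E10 AoD. Sfrp4 stayed between 0.144 and 0.804 RPM.

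**Figure D4:**
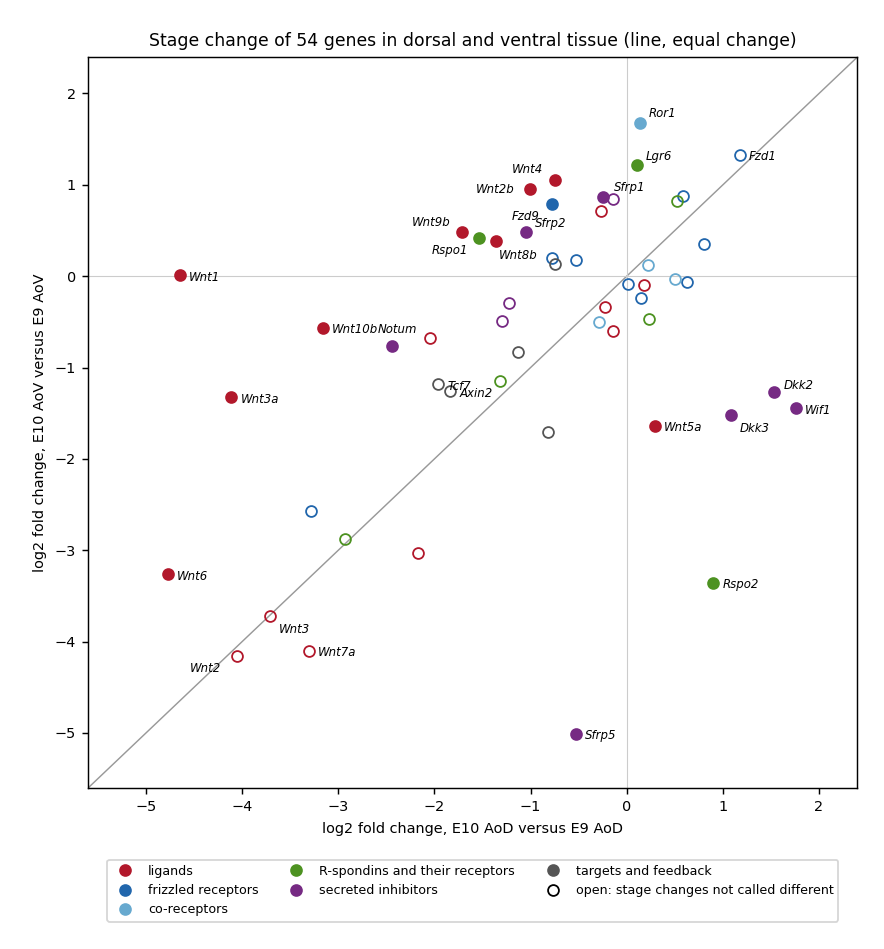
Log2 fold change with stage in AoD (x axis) and in AoV (y axis) for the 54 genes tested, colored by role, with filled points where the interaction was called and a line of equal change. Dkk2, Dkk3 and Wif1 rose in AoD and fell in AoV, Wnt2, Wnt3 and Wnt7a fell alike in both, and Sfrp5 and Rspo2 lie far below the line.

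In 3 of the 54 genes (5.56%, against 0.566% of all genes tested) the stage changes were called in opposite directions on the dorsal and ventral side, and these were the inhibitors Dkk2, Dkk3 and Wif1, each higher in E10 AoD and lower in E10 AoV than at E9.5. Their interactions were -2.81, -2.61 and -3.20. The call of Dkk3 in AoD was lost under quantile normalization (0.93) and, at 0.9953, with a pseudocount of 1 RPM, and that of Wif1 in AoV as given above.

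Of the 5 target and feedback genes, 3 fell with stage in AoV and 3 in AoD (60% each, against 4.99% and 4% of all genes), and none rose (6.04% and 8.6%). Neural tube markers fell too, 6 of 10 in AoV and 8 of 10 in AoD, as did 6 of 7 caudal progenitor markers in both, and their part in these falls was not tested. Axin2, the feedback scaffold of the β-catenin destruction complex (chromosome 11, 108781663 to 108812097), stood at 49.4, 52.5 and 67.4 RPM in E9 AoD and 32.3, 33.6 and 36.8 RPM in E9 AoV. At E10.5 it stood at 16.4, 16.5 and 14.0 RPM in AoD, 14.8, 14.3 and 13.6 RPM in AoV and 28.5, 29.6 and 29.9 RPM in UGR. The aortic groups of the 2 stages did not overlap, and UGR lay between them. Its log2 fold change with stage was -1.84 in AoD (SE 0.098, adjusted p = 2.12e-09) and -1.26 in AoV (SE 0.098, adjusted p = 1.06e-07), and E10 AoV was below UGR (-1.04, SE 0.098, adjusted p = 1.44e-06), a call lost with a pseudocount of 1 RPM (-0.99).

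Tcf7, a TCF factor that is also a target, stood at 59.3, 55.8 and 60.1 RPM in E9 AoD and 52.2, 50.7 and 58.1 RPM in E9 AoV. At E10.5 it stood at 14.2, 13.9 and 16.8 RPM in AoD, 25.2, 23.9 and 21.7 RPM in AoV and 48.7, 49.3 and 48.8 RPM in UGR. Its log2 fold change with stage was -1.96 in AoD and -1.18 in AoV, and relative to UGR it was -1.71 in E10 AoD and -1.05 in E10 AoV, the last call being lost without E10 AoV replicate 3 (-0.99). Lef1, its relative, stood at 51.7, 50.4 and 56 RPM in E9 AoD and 31.9, 29.2 and 38.3 RPM in E9 AoV. Its E10.5 values were 24.5, 24.8 and 22.9 RPM in AoD, 20.0, 17.9 and 17.6 RPM in AoV and 37.8, 38.0 and 41.4 RPM in UGR. It fell in AoD (log2 fold change -1.13) and was below UGR in E10 AoV (-1.07). Axin2, Tcf7 and Lef1 thus had their lowest group means at E10.5 in the aorta and their highest in E9 AoD.

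The 2 Nkd genes, which act on Dishevelled, differed from this pattern and from each other. Nkd1 stood at 39.6, 34.0 and 43.2 RPM in E9 AoD, 32.0, 28.9 and 34.0 RPM in E9 AoV, with 24.3, 22.8 and 21.9 RPM in E10 AoD, 34.5, 35.0 and 34.1 RPM in E10 AoV and 45.0, 47.0 and 42.5 RPM in UGR, with no call. Nkd2 stood at 35.6, 32.1 and 37.6 RPM in E9 AoD, 15.5, 14.3 and 19.5 RPM in E9 AoV, with 20.5, 21.9 and 17.2 RPM in E10 AoD, 5.19, 4.73 and 4.82 RPM in E10 AoV and 8.98, 11.1 and 7.32 RPM in UGR. It was dorsal at both stages, with log2 fold changes of -1.10 at E9.5 (SE 0.141, adjusted p = 1.47e-05) and -1.99 at E10.5 (SE 0.141, adjusted p = 4.18e-08), and fell with stage in AoV (-1.71). Its excess in E10 AoD over UGR was 1.13, and 0.98 without UGR replicate 3. No interaction was called for any of the 5 genes.

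**Figure D5:**
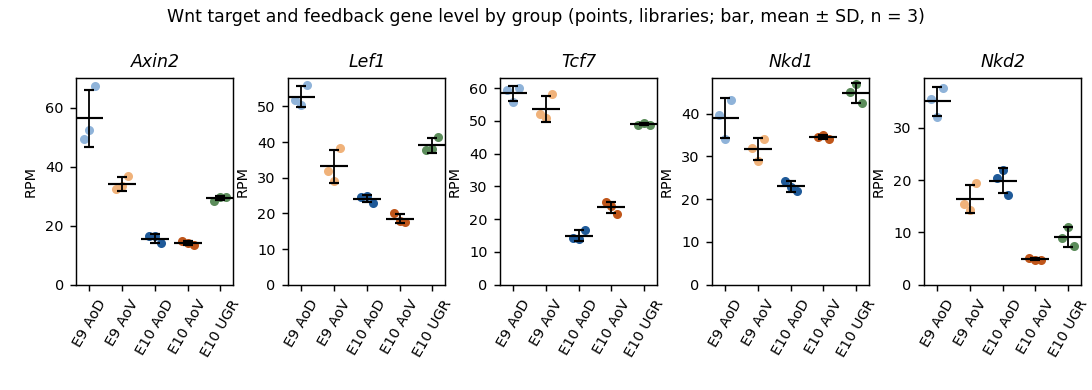
RPM of the 5 target and feedback genes in the 5 groups, with each library as a point and the mean ± SD (n = 3) in black. Axin2, Lef1 and Tcf7 are lower in both aortic groups at E10.5 than at E9.5, with E10 UGR above both E10 aortic groups, while Nkd2 is lowest in E10 AoV at 4.73 to 5.19 RPM.

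Promoter sequences were also read for TCF/LEF core motifs. RefSeq windows of 300 bases on GRCm38.p6, from 250 before to 50 after the start of a transcript, were at hand for 38 of the 56 genes. GRCm38.p6 is a later build than the one the reads were aligned to. The motif CTTTGAT, on either strand, was in 3.73% of 32851 windows of all genes and in 2 of the 45 windows of the members (4.44%), those of Wnt5b and Wnt11, and CTTTGAA was in 5.14% of all windows and in 1 of the members' (2.22%), that of Dkk1. The windows of Axin2, Lef1, Tcf7, Nkd1 and Nkd2, 9 in all, held neither, which says only that these letters are not in those windows. The 3 matches are shown with the motif in capitals, read along the gene, and begin 71, 51 and 117 bases before the start. They lie at chr6:119449439-119449468 (minus strand), chr7:98835050-98835079 (plus strand) and chr19:30549595-30549624 (minus strand).
Wnt5b: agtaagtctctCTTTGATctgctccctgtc
Wnt11: gacgtgggcggATCAAAGcgacggtccgcg
Dkk1: tcctcccaaagCTTTGAAatcccatcccgg
Of these 3 genes only Dkk1 was called in a comparison.

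The 250 bases before the start of Axin2 (chr11:108920099-108920348, plus strand) and of Lef1 (chr3:131110047-131110296, plus strand, the most upstream of 4 windows) are shown. Both genes fell with stage in AoD. The window of Tcf7, which also fell there, runs into coding sequence and is not shown. Capitals mark the shorter core CTTTG on either strand, which 53.9% of all windows held and which overlaps both longer motifs. It occurred in the stretch of Lef1, at 1 place, and not in that of Axin2, and the share of G and C was 66.4% and 69.2%.
Axin2: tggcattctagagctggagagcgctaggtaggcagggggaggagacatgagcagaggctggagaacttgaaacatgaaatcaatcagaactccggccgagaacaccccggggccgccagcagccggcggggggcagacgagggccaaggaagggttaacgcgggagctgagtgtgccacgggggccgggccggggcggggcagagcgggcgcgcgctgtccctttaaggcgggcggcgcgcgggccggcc
Lef1: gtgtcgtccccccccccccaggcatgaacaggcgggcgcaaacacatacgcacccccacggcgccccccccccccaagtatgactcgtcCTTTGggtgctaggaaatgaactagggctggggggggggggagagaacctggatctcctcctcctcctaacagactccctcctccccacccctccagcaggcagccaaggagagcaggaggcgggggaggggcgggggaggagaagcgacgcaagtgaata

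Of 46 further Wnt pathway genes, among them Ctnnb1 (β-catenin), the destruction complex, Dishevelled and planar polarity genes, all 46 were tested. With stage, 3 were higher and 6 lower in AoV (6.52% and 13%, against 6.04% and 4.99% of all genes), and 1 was higher and 7 lower in AoD (2.17% and 15.2%, against 8.6% and 4%). In E10 AoV relative to E10 AoD 2 were higher and 3 lower (4.35% and 6.52%, against 5.81% and 4.29%), and in E9 AoV relative to E9 AoD 2 and 6 (4.35% and 13%, against 8.32% and 3.47%). Relative to UGR 2 were higher and 6 lower in E10 AoV (4.35% and 13%, against 3.84% and 3.73%), and 4 and 6 in E10 AoD (8.7% and 13%, against 4.76% and 6.56%). The medians over the list lay between -0.0218 and 0.0730 on the log2 scale. Kremen2, a partner of Dkk1, fell with stage by log2 fold changes of -2.25 in AoV and -3.0 in AoD. Rnf43, a ubiquitin ligase that removes Frizzled and is countered by R-spondins, fell in AoV (-2.27) and in AoD (-1.26). Sp5, a canonical target, fell in AoD (-2.56) and in AoV (-1.79). Of the genes that rose with stage, Prickle2 (1.26) and Daam2 (1.16) had the largest log2 fold changes in AoV, and Dact3 (1.35) was the 1 in AoD. Both aortic groups of E10.5 had less Rnf43 than UGR, with log2 fold changes of -2.55 and -3.19, and more Sost, with 2.44 and 2.22. Dact2, which binds Dishevelled, was higher in AoV than in AoD at both stages, by log2 fold changes of 2.04 and 2.27, whereas Celsr3, a planar polarity gene of neurons, was lower at both, with log2 fold changes of -2.73 and -2.26.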

How the data were processed

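RNA of dissected tissue pools was sequenced in 15 libraries of 5 groups (3 each). The authors used TopHat and Bowtie 0.12.3 for alignment to NCBI37/mm9, summed unique reads over Ensembl genes in GeneProf and split ambiguous reads between genes in proportion to unique ones. The deposited table gives these values as RPM, which the authors scaled to 1000000 reads in every library and not by gene length. For 6 pairs of groups it also gives the authors' DESeq log2 fold change and adjusted p-value in 12 columns, which were not used. The kit did not mark strand.

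The 56 genes, their roles, the marker lists and the 46 further pathway genes were chosen with earlier results of these data known. Depth was derived from the RPM of 1 read. Between 62.7% and 67.4% of values under 30 reads were whole within 0.05 read, so whole reads were not recovered and no count model was used. Intervals and the 3-read floor cover counting error only. The 18553 of 28876 genes that reached 0.5 RPM in at least 1 sample entered a linear model of log2(RPM + 0.1) in limma 3.58.1 (R 4.3.3), which used all 15 libraries, a mean for each group and empirical Bayes moderation with trend. Benjamini-Hochberg adjusted p below 0.05 over all tested genes and a log2 fold change of at least 1 in size made a call. The fit was tested on simulated data. Summed-read ratios used reads rounded to whole numbers and an exact binomial interval. Positions and exon lengths came from GENCODE on NCBIM37 and promoter windows from RefSeq on GRCm38.p6.

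Values in every library are given for the 3 members with the largest change per direction and comparison, for Wnt2b, and for the target and feedback genes. Other members are given by means, ranges or log2 fold changes. Of the further pathway genes, at most 2 per direction and comparison were chosen, and the stage changes of Rnf43 and Sp5 are given in both tissues.

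The labels number the replicates 1 to 3 in every group without saying what the numbers share, and the study states that pools came from separate experiments. Deviations of same-numbered libraries from their group means correlated at 0.452, 0.347 and 0.19 between E9 AoD and E9 AoV. They were also positive for every number between all E10 groups (0.0416 to 0.339) and between E10 AoD and E9 AoV (0.065 to 0.216). The main fit had no replicate block, so it treated no libraries as paired, and a block was fitted only as an alternative. The alternatives were pseudocounts of 0.5 and 1 RPM, no filter, a filter of 0.5 RPM in 3 samples, quantile and median ratio scaling, only the groups compared, a replicate block, no fold threshold and leaving out each library.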

Additional observations from a re-analysis of the deposited data

Results flagged for a closer look

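For 21 of the 54 genes tested, the stage change in AoV differed from that in AoD, by limma's test of the interaction itself (adjusted p below 0.05 and at least 2-fold). The interaction, the log2 change in AoV minus that in AoD, was negative for the inhibitors Sfrp5 (-4.48), Wif1 (-3.20), Dkk2 (-2.81) and Dkk3 (-2.61), for Rspo2 (-4.26) and for Wnt5a (-1.93). It was positive for the ligands Wnt1 (4.66), Wnt3a (2.79), Wnt10b (2.60), Wnt9b (2.20), Wnt2b (1.97), Wnt4 (1.79), Wnt8b (1.75) and Wnt6 (1.51). It was also positive for Rspo1 (1.96), Notum (1.68), Fzd9 (1.57), Ror1 (1.55), Sfrp2 (1.53), Sfrp1 (1.12) and Lgr6 (1.11).

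Several of these values rest on low levels or on few libraries. Wnt1 and Wnt10b entered the test only through E9 AoD libraries, Wnt3a only through E9 libraries and Wnt8b only through UGR libraries. Wnt1 was at no more than 2 reads in every E9 AoV, E10 AoD and E10 AoV library, and leaving out E9 AoD replicate 2 or replicate 3 moved its value to 5.30 or 4.03. Wnt3a lost its call without E9 AoD replicate 1 (adjusted p = 0.0645) or replicate 3 (0.0845), E9 AoV replicate 2 (0.0788) or replicate 3 (0.0686), E10 AoD replicate 1 (0.0673) or replicate 3 (0.0648), or any 1 E10 AoV library (0.0678, 0.0519 and 0.0531), and moved to 3.58 and 3.51 without E9 AoD replicate 2 and E9 AoV replicate 1. Wnt6 lost its call without E9 AoD replicate 1 (0.0595) or replicate 3 (0.0783), E9 AoV replicate 2 (0.0713), E10 AoD replicate 1 (0.069), or E10 AoV replicate 1 (0.0587) or replicate 2 (0.0813). Lgr6 fell below the 2-fold limit without E9 AoD replicate 2 (0.88), E9 AoV replicate 1 (0.99) or E10 AoD replicate 1 (0.99). With pseudocounts of 0.5 and 1 RPM, neither Lgr6 (0.915 and 0.75) nor Wnt8b (0.67 and 0.38) was called, and Wnt8b had 6 reads in all in E10 AoD. Wnt3a and Wnt6 lost their calls with no filter (adjusted p = 0.0718 and 0.0725) and with only the groups compared (0.0525 and 0.0516). Wnt6 also lost its call with a pseudocount of 1 RPM (0.80). Reads of Notum cannot be told from those of antisense transcripts over part of its exons.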

How the results depend on the processing

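The numbers of members called were 21 and 27 with stage in AoV and AoD, 22 and 19 between AoV and AoD at E10.5 and E9.5, 18 and 25 for E10 AoV and E10 AoD relative to UGR, and 21 for the interaction. With no fold threshold they were, in that order, 37, 44, 36, 40, 37, 41 and 38, where 46%, 57.8%, 35.5%, 47.7%, 29.1%, 39.2% and 28.1% of all genes were called. Leaving out 1 library at a time gave 20 to 23, 26 to 28, 21 to 22, 19 to 21, 17 to 21, 23 to 27 and 18 to 23. The replicate block gave 21, 27, 22, 19, 18, 25 and 22 and lost no call of a member, and 19 calls also stood for the E9.5 groups fitted alone with the block, an alternative chosen after seeing the data. Of 153 called values, 40 lost their call under at least 1 of these settings and none turned direction. A pseudocount of 1 RPM lost 34 and one of 0.5 RPM 20, leaving 12 to 21 and 14 to 24 members called per comparison. Quantile normalization, no filter and fitting only the groups compared lost 2 each, and median ratio scaling and the stricter filter lost none. Neither scaling moved the median of all genes by over 0.1 on the log2 scale. Depth limits the ligands below about 0.1 RPM, whose fitted changes depend on the pseudocount.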
